A study of Mus musculus with 6 samples.

Results

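The genes of the ubiquitin E1 and E2 enzymes were taken by symbol from the RNA immunoprecipitation sequencing (RIP-seq) tables: every gene named Uba followed by a digit from 1 to 7, and every gene whose name begins with Ube2, leaving out names that carry -ps. These rules found 46 of the 55376 genes, of which 6 were Uba and 40 were Ube2 genes. RIP-seq sequences the RNA that comes down with a protein, here the RNA-binding protein CPEB1, and the study used it to find transcripts associated with CPEB1 during the early activation of muscle stem cells (satellite cells, SCs). The 6 libraries came from freshly isolated SCs (fiSCs) of C57BL/6 mice aged 3 months, 2 for each of 3 groups. RNA precipitated with an anti-CPEB1 antibody formed the CPEB1 IP group, RNA that came down with control IgG formed the IgG group, and RNA that was not immunoprecipitated formed the input group. No genotype, injury or drug separated the groups, so that all of them held RNA of the same kind of cells, collected after isolation by fluorescence-activated sorting. The labels number the replicates 1 and 2 in each group without naming the animals or preparations, and the p-values below measure only the spread between these libraries.

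Ubiquitin is passed to its target proteins along a chain of 3 kinds of enzyme. An E1 activates ubiquitin or a related modifier with ATP, an E2 takes over the activated modifier on a cysteine, and an E3 ligase brings the charged E2 to the target. Chains of ubiquitin send proteins to the proteasome or change their activity and location, and protein turnover of this kind is well known from muscle wasting and from the differentiation of muscle precursors. CPEB1 binds the cytoplasmic polyadenylation element (CPE), a short U-rich stretch in the 3′ UTR of its target mRNAs, and governs poly(A) tail length and translation there.

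The CPEs of the E1 and E2 genes that were higher in CPEB1 IP than in IgG are shown first, since they are the letters CPEB1 is known to read. CPEs were searched as TTTTAT or TTTTAAT on the transcript strand of the annotated 3′ UTRs. For each of the 6 such genes with a match in its longest 3′ UTR, the match nearest the end of that UTR is printed in capitals with 10 bases on either side in lower case, 5′ to 3′, from GENCODE M21 transcripts on mm10. The seventh gene, Ube2l3, had no match in its longest 3′ UTR and 1 or more in another annotated one.
Ube2g2: aacaaagtatTTTTATtcatttgtat
Ube2z: gcagcctgacTTTTATgccctggttt
Uba1: aattgatatcTTTTATatactctgca
Ube2h: aatttacttaTTTTATgttaattacg
Ube2n: taacatcagtTTTTATtactgcagaa
Ube2j1: atagagtagaTTTTATagttatttaa
Each of these windows lies within 1 exon of the 3′ UTR and holds TTTTAT. They span chr10:77645884-77645909 on the plus strand for Ube2g2, chr11:96048606-96048631 on the minus strand for Ube2z and chrX:20682823-20682848 on the plus strand for Uba1. The other windows span chr6:30213322-30213347 on the minus strand for Ube2h, chr10:95545368-95545393 on the plus strand for Ube2n and chr4:33051455-33051480 on the plus strand for Ube2j1. In Ube2g2 the printed match was followed by a polyadenylation hexamer (AATAAA or ATTAAA) after 12 bases, and in Ube2z after 101 bases. From the printed match of the other 4 genes the next hexamer was between 252 and 850 bases away. Other CPEs of a gene can lie closer to a hexamer. Over all CPEs of the annotated 3′ UTRs, 3 of the 7 higher genes had one within 100 bases before a hexamer, namely Ube2g2, Ube2n and Ube2l3. Such a CPE was found in 34.3% of the E1 and E2 genes tested against IgG and in 35.3% of all tested genes with a 3′ UTR.

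Counts on genes lay between 1284716 and 4941653 per library, the lowest in IgG, and 5696 to 24706 of them fell on the 46 genes. Summed and scaled to the counts on genes, the E1 and E2 genes came to 4260 and 4620 in input, 4430 and 4560 in IgG, and 5140 and 5000 CPM (counts brought to one library size) in CPEB1 IP. Only 39.1% and 39.5% of the library total behind the authors' FPKM (fragments per kilobase of exon, scaled to that total) lay on genes in IgG, against 69.5% to 79.8% in the other 4 libraries. The summed level of 10 satellite cell markers was 10100 to 13500 CPM in every library, and none of them was at 0. CPM of single genes and markers are given after TMM normalization, edgeR's scaling that sets most genes equal between libraries. Markers of other cells were low but moved with the groups: 6 haematopoietic markers summed to 55.4 to 69.9 CPM in IgG and 14.5 to 28.8 CPM in the other libraries. Likewise 5 fibro-adipogenic markers summed to 526 to 534 CPM in CPEB1 IP, 372 to 426 CPM in IgG and 250 to 307 CPM in input, and 3 smooth muscle and pericyte markers to 669 to 813 CPM in input and 254 to 371 CPM in both precipitates. Their part in the results below was not tested. Cpeb1 mRNA itself was at 197 and 216 CPM in CPEB1 IP, 90.4 and 95.4 CPM in IgG, and 97.6 and 82.2 CPM in input.

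Of the 46 genes, 35 had enough counts for a test in all 3 comparisons, and 11 were not tested. The untested genes had at most 9 counts in any library, and Ube2dnl1 and Ube2dnl2 had none. Their counts were too low for the tests of 2 groups, and only Ube2cbp, at 5.32 and 3.64 CPM in IgG and 0.833 and 1.03 CPM in CPEB1 IP, was called, as lower in CPEB1 IP, when all 6 libraries were in 1 fit. Among the 11 were Ube2c, the E2 that starts chains for the anaphase-promoting complex, Ube2v1, Ube2ql1, Ube2u and Ube2d2b. Also untested were Ube2d4 and Ube2nl, annotated as processed pseudogenes, Ube2uos, an antisense transcript, and Ube2cbp, named as a binding partner of Ube2c and not an E2 itself. The symbol rule therefore held 3 genes annotated as noncoding, which had at most 2 counts in each library.

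Levels between genes were compared in FPKM, which divides by the summed exon length of each gene. In input, Ube2b, one of the mammalian counterparts of yeast Rad6 that ubiquitinates histone H2B, was highest with 88.5 and 120 FPKM. Ube2g2, an E2 of endoplasmic reticulum-associated degradation (ERAD), followed with 91.8 and 102 FPKM, within the range of Ube2b. Ube2j1, an E2 anchored in the endoplasmic reticulum membrane, had 63.4 and 75.9 FPKM, and Uba1, the main E1 of ubiquitin, had 46.6 and 54.0 FPKM. Each of these genes lay apart from the next in both libraries, except that Ube2b and Ube2g2 overlapped. Ube2d3, Ube2a, Ube2n and Ube2h came next with means of 33.1 to 24.9 FPKM and could not be ordered, as each overlapped its neighbour. By counts alone Ube2d3, an E2 that serves many E3 ligases, was highest in all 6 libraries at 984 to 1460 CPM, over an exon length of 24499 bases. The plot of levels by library shows 33 of the 35 tested genes in this order.

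**Figure D1:**
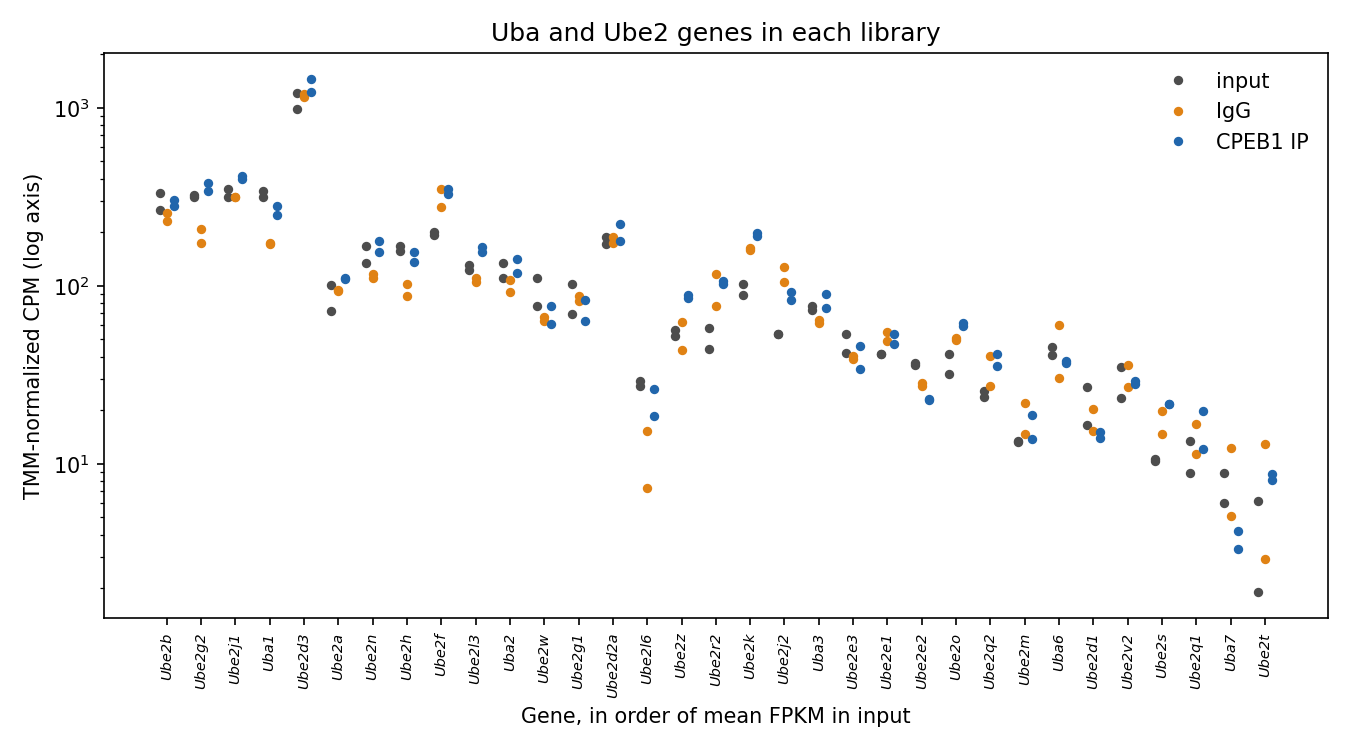
TMM-normalized CPM (log axis) of 33 of the 35 tested E1 and E2 genes in each of the 6 libraries, with genes from left to right by falling mean FPKM in input and 1 point for each library. Ube2d3 lies on top at 984 to 1460 CPM, the IgG points of Ube2g2, Uba1 and Ube2h lie below the other groups, and the input points of Ube2j2, Ube2k, Ube2r2 and Ube2f lie below both precipitates.

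Against IgG, 7 of the 35 tested genes were higher in CPEB1 IP (20.0%) and 1 was lower (2.86%), at an adjusted p under 0.05 in the quasi-likelihood test of edgeR, adjusted by Benjamini-Hochberg over all 12124 genes tested. Over all tested genes, 14.7% were higher and 18.7% were lower. The share of E1 and E2 genes that were higher was thus near that of all genes, and the share that were lower was smaller. Higher were Ube2g2, Ube2z, Uba1, Ube2h, Ube2l3, Ube2n and Ube2j1, and Ube2j2 was lower. The median log2 fold change was 0.13 over the 35 genes and -0.01 over all genes. Counts of calls moved with the tool, the filter and the scaling. DESeq2, which also took its own size factors and 42045 genes, called 15 of the genes higher and none lower. Without the filter on low counts edgeR called 18 and none, and with upper quartile scaling 6 and 4. RLE scaling in edgeR, the kind DESeq2 uses but taken over the 12124 filtered genes only, left 7 and 1. Its factors were not those of the DESeq2 fit, and the median of all genes was 0.0011 with them. Among all genes the higher share of calls was 44.0%, against 72.7% by DESeq2, 60.1% without the filter and 27.1% with upper quartile scaling, as the median of the same genes shifted to 0.27, 0.39 and -0.15. The distance between the median of the E1 and E2 genes and that of all genes was 0.14, 0.14, 0.15 and 0.15 in these 4 fits, which shift all genes nearly alike, but it was 0.23 without the second IgG library and 0.11 over protein-coding genes. With upper quartile scaling the median of the E1 and E2 genes itself was -0.0049. Leaving out the first or second CPEB1 IP library brought the higher share of all calls to 60.5% or 60.9%.

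Against input, 9 of the 35 genes were higher in CPEB1 IP (25.7%) and 1 was lower, where 17.0% and 15.8% of all 12171 tested genes were. Ube2r2, Ube2s, Ube2k, Ube2f, Ube2o, Ube2j2, Ube2z, Ube2q2 and Ube2l3 were higher, and Ube2e2 was lower. The median log2 fold change was 0.21 over the E1 and E2 genes and -0.0038 over all genes. The number of calls in both directions changed with single libraries, among these genes and over all genes. Without the second input library the 2 medians were 0.30 and -0.01, and without the first 0.17 and -0.02. Without the second CPEB1 IP library they were 0.25 and -0.04. In IgG against input, 4 genes were higher and 5 lower, where 21.4% and 19.4% of all 12980 tested genes were. Ube2j2, Ube2r2, Ube2k and Ube2f were higher in IgG, and Ube2l6, Uba1, Ube2h, Ube2g2 and Ube2w were lower. Here the medians were 0.02 for the E1 and E2 genes and 0.03 for all genes. Leaving out an IgG library again changed the number of calls, among these genes and over all genes. The medians were -0.11 and -0.05 without the first IgG library, and 0.01 and -0.05 without the second. With DESeq2 2 of the E1 and E2 genes were higher and 3 lower, where 1004 and 1530 of 40052 genes were. The 3 comparisons share their libraries and are not independent of each other. Taking each gene by its 3 results, 18 of the 35 passed the threshold nowhere. The share of all genes that passed nowhere was not counted, so this number has no background beside it.

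**Figure D2:**
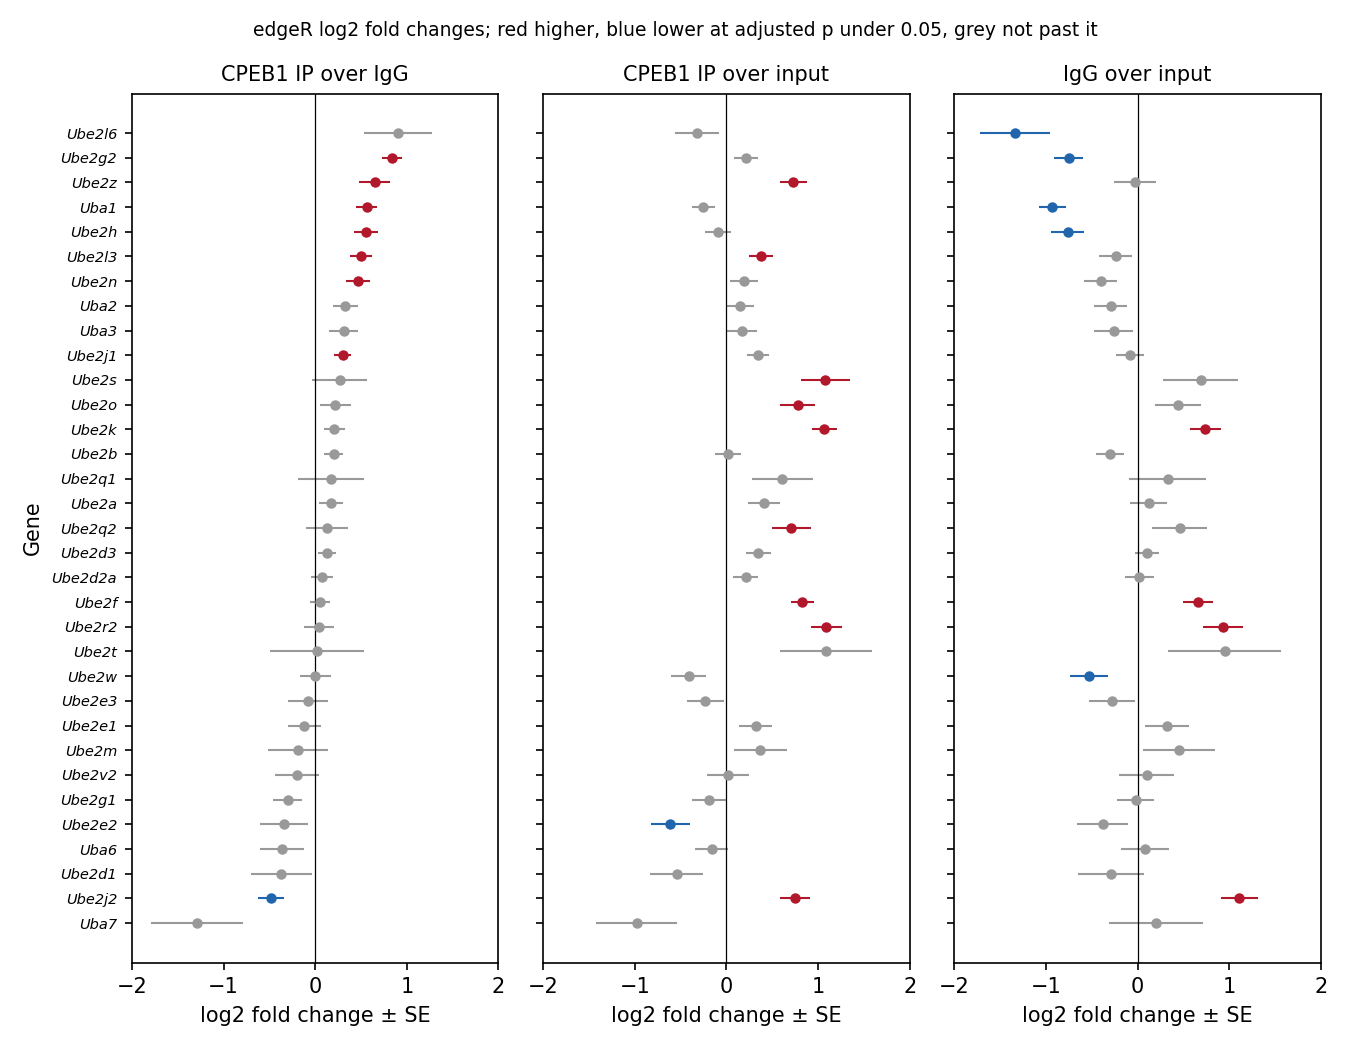
Log2 fold change with its SE from edgeR's quasi-likelihood fit for 33 of the 35 tested E1 and E2 genes in CPEB1 IP over IgG, CPEB1 IP over input and IgG over input, in the order of the first panel. Red points were higher and blue points lower at an adjusted p under 0.05: 7 and 1 in the first panel, 9 and 1 in the second, 4 and 5 in the third.

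Uba1 was the only E1 gene that passed the test, with its lowest levels in IgG. The gene (chrX:20658326-20683179, plus strand) was at 317 and 340 CPM in input, 171 and 174 CPM in IgG, and 249 and 282 CPM in CPEB1 IP. Both IgG libraries lay below both CPEB1 IP libraries, which lay below both input libraries. The log2 fold change was 0.56 (SE 0.11, edgeR adjusted p = 0.000527) for CPEB1 IP over IgG and -0.93 (SE 0.15, adjusted p = 5.88e-06) for IgG over input. CPEB1 IP over input gave -0.25 (SE 0.13) and did not pass the test (edgeR adjusted p = 0.151), except without the first input library, where it was -0.32. The first 2 results kept their direction and passed the threshold in each of the 11 alternative fits, with log2 values of 0.42 to 0.96 and of -1.20 to -0.76. The groups differ in how RNA of the same kind of cells was recovered, and what lowered Uba1 in IgG was not tested. Uba6, the other E1 that can activate ubiquitin, was at 40.8 and 45.3 CPM in input, 30.4 and 60.5 CPM in IgG, and 37.9 and 36.7 CPM in CPEB1 IP. The IgG libraries lay on either side of all others, and no comparison passed the test. Without the first IgG library Uba6 was lower in CPEB1 IP than in IgG, at -0.71.

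Uba2, Uba3 and Uba7, E1 genes of other modifiers, did not pass the threshold in any of the 3 comparisons. Uba2, which activates SUMO together with Sae1, was at 110 and 135 CPM in input, 108 and 92.5 CPM in IgG, and 118 and 142 CPM in CPEB1 IP. Uba3, the catalytic E1 subunit for NEDD8, was at 77.3 and 73.4, 61.5 and 64.1, and 89.6 and 75.1 CPM in the same order. In both genes the IgG libraries lay below both CPEB1 IP libraries, and the CPEB1 IP libraries overlapped those of input. Their log2 fold changes over IgG were 0.33 (SE 0.14) and 0.31 (SE 0.16), with edgeR adjusted p of 0.0713 and 0.146. DESeq2 and the fit without a filter called both higher, at 0.60 to 0.73, and Uba2 was also called without the first IgG library or the first CPEB1 IP library. Uba7, the E1 of the interferon-induced modifier ISG15, was scarce at 8.90 and 5.98 CPM in input, 12.2 and 5.10 CPM in IgG, and 4.17 and 3.30 CPM in CPEB1 IP. Both CPEB1 IP libraries were lowest, and the difference from IgG of -1.29 (SE 0.50) had an edgeR adjusted p of 0.0517. It passed the threshold with upper quartile scaling (-1.43) and without the second IgG library (-1.75).

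Of the E2 genes of the endoplasmic reticulum, Ube2g2 showed the largest difference of the higher genes. Ube2g2 (chr10:77622275-77645993, plus strand) was at 175 and 208 CPM in IgG, 377 and 341 CPM in CPEB1 IP, and 315 and 326 CPM in input. The IgG libraries lay below all others, and the CPEB1 IP libraries lay above both input libraries. The log2 fold change over IgG was 0.84 (SE 0.11, edgeR adjusted p = 1.41e-05), a 1.79-fold difference that passed the threshold in each of the 11 alternative fits. IgG over input was -0.75 (SE 0.16, adjusted p = 0.000168), a call lost without the first IgG library (-0.65), and CPEB1 IP over input was 0.21 (SE 0.13, edgeR adjusted p = 0.21). Its paralogue Ube2g1 was at 82.0 and 87.4 CPM in IgG and 82.9 and 63.6 CPM in CPEB1 IP, with a log2 fold change of -0.30 (SE 0.16) that did not pass the test. It was lower only with upper quartile scaling.

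The pair of membrane-anchored E2 genes went opposite ways against IgG. Ube2j1 (chr4:33031416-33052363, plus strand) was at 317 and 315 CPM in IgG, 414 and 399 CPM in CPEB1 IP, and 316 and 350 CPM in input, so that both CPEB1 IP libraries were above the other 4. The log2 fold change over IgG was 0.30 (SE 0.09, edgeR adjusted p = 0.0201), the smallest of the 7, and over input it was 0.34 (SE 0.12, adjusted p = 0.0521). The call against IgG was lost with upper quartile scaling (0.16) and without the second IgG library (0.34). Ube2j2 (chr4:155943831-155959604, plus strand) was at 53.7 and 53.8 CPM in input, 128 and 105 CPM in IgG, and 92.5 and 83.0 CPM in CPEB1 IP. The input libraries were lowest and the IgG libraries highest, without overlap. IgG over input was 1.11 (SE 0.20, edgeR adjusted p = 1.83e-05), which passed in all 11 alternative fits, and CPEB1 IP over input was 0.75 (SE 0.16, adjusted p = 0.00279), lost without the first CPEB1 IP library (0.69). CPEB1 IP over IgG was -0.48 (SE 0.14, edgeR adjusted p = 0.0113). That call was lost with DESeq2 (-0.19), without the filter (-0.08), with all 6 libraries in 1 fit (-0.41), and without the first IgG library (-0.28) or the second CPEB1 IP library (-0.37).

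**Figure D3:**
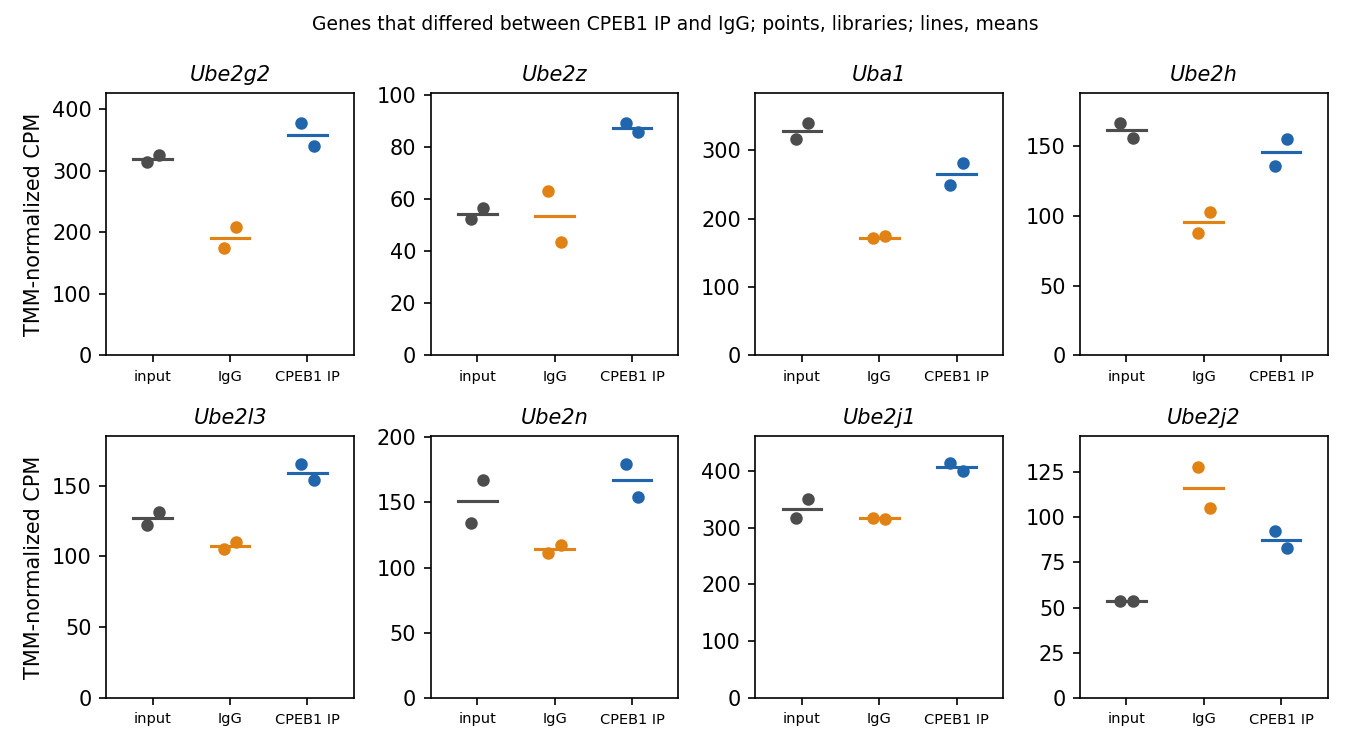
TMM-normalized CPM, on axes that start at 0, of the 8 E1 and E2 genes that differed between CPEB1 IP and IgG, with 1 point for each library and a line at the group mean. The IgG points of Ube2g2, Uba1 and Ube2h lie below both other groups, the CPEB1 IP points of Ube2z, Ube2l3 and Ube2j1 lie above both, and Ube2j2 goes from 53.7 and 53.8 CPM in input to 128 and 105 CPM in IgG.

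Ube2z (chr11:96047432-96065388, minus strand), an E2 charged by Uba6 and not by Uba1, was at 63.0 and 43.7 CPM in IgG, 52.5 and 56.4 CPM in input, and 89.2 and 85.9 CPM in CPEB1 IP. Both CPEB1 IP libraries lay above the other 4, and IgG and input overlapped. The log2 fold change was 0.65 over IgG (SE 0.17, edgeR adjusted p = 0.00575) and 0.73 over input (SE 0.15, adjusted p = 0.00287). The difference from input passed in all 11 alternative fits, and that from IgG was lost without the second IgG library (0.45). Besides Ube2z, the gene Ube2l3 was the only one of the 35 that was higher than both IgG and input. Ube2l3 (chr16:17152013-17202649, minus strand), which works with HECT and RBR ligases such as parkin, was at 105 and 110 CPM in IgG, 122 and 131 CPM in input, and 165 and 154 CPM in CPEB1 IP. The 3 groups did not overlap. Over IgG the log2 fold change was 0.50 (SE 0.12, edgeR adjusted p = 0.00362) and passed in all 11 alternative fits. Over input it was 0.38 (SE 0.13, edgeR adjusted p = 0.045), and 8 of the 11 alternatives lost that call, DESeq2 and the replicate block (0.38) among them. On the opposite strand Ydjc covers 28.6% of the exon bases of Ube2l3, with at most 15 counts of its own in a library. The sources used here do not say whether the counting used strand, and without it the reads of a gene and of a gene antisense to it cannot be told apart.

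Ube2h (chr6:30211289-30304539, minus strand), the E2 of the GID/CTLH ligase complex, was at 88.1 and 103 CPM in IgG, 136 and 155 CPM in CPEB1 IP, and 167 and 156 CPM in input. The IgG libraries lay below all others. CPEB1 IP over IgG was 0.55 (SE 0.13, edgeR adjusted p = 0.00318), IgG over input was -0.76 (SE 0.18, adjusted p = 0.000674), and CPEB1 IP over input was -0.09 (SE 0.14, adjusted p = 0.637). The first call was lost without the second CPEB1 IP library (0.47) and the second call without the first IgG library (-0.67). Ube2n (chr10:95515145-95545657, plus strand), also called Ubc13, builds chains of signalling and DNA repair together with the inactive E2 variants Ube2v1 or Ube2v2. It was at 111 and 117 CPM in IgG, 179 and 154 CPM in CPEB1 IP, and 134 and 167 CPM in input, and the IgG libraries were lowest. The log2 fold change over IgG was 0.47 (SE 0.13, edgeR adjusted p = 0.00658), lost without the first CPEB1 IP library (0.40). IgG over input was -0.40 (SE 0.18) with an edgeR adjusted p of 0.0656, and passed the threshold with the replicate block and 3 other alternatives. Its partner Ube2v2, at 23.3 to 35.7 CPM, passed no test, and its pseudogene Ube2n-ps1, outside the symbol rule, held 18 to 42 counts in each library.

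Ube2k and Ube2r2, both builders of the chains that the proteasome reads, were higher in both precipitates than in input. Ube2k (chr5:65537233-65598988, plus strand) was at 89.3 and 103 CPM in input, 163 and 158 CPM in IgG, and 199 and 191 CPM in CPEB1 IP, and the 3 groups did not overlap. CPEB1 IP over input was 1.07 (SE 0.14, edgeR adjusted p = 0.000115), IgG over input was 0.74 (SE 0.17, adjusted p = 0.000744), and CPEB1 IP over IgG was 0.21 (SE 0.11, adjusted p = 0.149). Ube2r2 (chr4:41135743-41193380, plus strand), a Cdc34-type E2 of cullin-RING ligases, was at 43.9 and 58.3 CPM in input, 77.5 and 117 CPM in IgG, and 106 and 103 CPM in CPEB1 IP. Input was lowest, and the precipitates overlapped. The values were 1.09 for CPEB1 IP over input (SE 0.17, edgeR adjusted p = 0.000375), 0.93 for IgG over input (SE 0.22, adjusted p = 0.00065) and 0.04 for CPEB1 IP over IgG (SE 0.16). For both genes the difference of CPEB1 IP from input passed in all 11 alternative fits. The differences of IgG from input were lost with DESeq2 (0.60 for Ube2k and 0.78 for Ube2r2) and without the filter (0.47 and 0.65), and for Ube2r2 also without the second IgG library (0.58). DESeq2 and the fit without a filter called Ube2k higher than IgG, at 0.50 and 0.61.

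Ube2f (chr1:91250304-91290337, plus strand), an E2 of NEDD8, was at 194 and 201 CPM in input, 276 and 351 CPM in IgG, and 327 and 352 CPM in CPEB1 IP. Input was again lowest and the precipitates overlapped. The log2 fold change was 0.83 for CPEB1 IP over input (SE 0.13, edgeR adjusted p = 0.000388), passed in all 11 alternative fits, and 0.66 for IgG over input (SE 0.16, adjusted p = 0.000689). The latter was lost without the filter (0.39) and without the second IgG library (0.46). Ube2m, the other E2 of NEDD8, was at 13.2 to 22.0 CPM over the 6 libraries and passed no test. Ube2l6, the E2 of ISG15, was at 29.2 and 27.4 CPM in input, 15.2 and 7.28 CPM in IgG, and 26.2 and 18.6 CPM in CPEB1 IP. The IgG libraries were lowest, with a log2 fold change of -1.34 from input (SE 0.38, edgeR adjusted p = 0.00405), lost with DESeq2 and without the second IgG library. CPEB1 IP over IgG gave 0.90 (SE 0.37, edgeR adjusted p = 0.0664), above the value of every gene that passed, and the fits without the filter, with the replicate block, with all 6 libraries, without the first IgG library and without the second CPEB1 IP library called it. Ube2l6 was described after its values were seen, since the rule for genes with full values did not reach it.

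Among the remaining E2 genes that were higher in CPEB1 IP than in input, Ube2s, which extends chains for the anaphase-promoting complex, was at 10.7 and 10.4 CPM in input, 19.7 and 14.6 CPM in IgG, and 21.7 CPM in both CPEB1 IP libraries. Its log2 fold change over input was 1.08 (SE 0.27, edgeR adjusted p = 0.00852), lost with DESeq2 (1.06) and without the second CPEB1 IP library (1.05). On the other strand, Rpl28 shares 183 bases (3.56%) of its exons and held 177 to 664 counts. Ube2o, a large enzyme that joins E2 and E3 activity and clears unassembled proteins in maturing red cells, was at 41.4 and 32.1 CPM in input, 49.4 and 51.0 CPM in IgG, and 59.6 and 62.1 CPM in CPEB1 IP. The 3 groups did not overlap, and CPEB1 IP over input was 0.78 (SE 0.19, edgeR adjusted p = 0.00679), lost without the second CPEB1 IP library (0.71). Ube2q2 was at 23.6 and 25.5 CPM in input, 27.3 and 40.1 CPM in IgG, and 35.4 and 41.3 CPM in CPEB1 IP, and the precipitates overlapped. Its difference from input was 0.71 (SE 0.21, edgeR adjusted p = 0.0191), lost with DESeq2 (0.67) and without the second CPEB1 IP library (0.54). Ube2t, the E2 of the Fanconi anaemia pathway, was at 1.89 to 12.9 CPM and passed no test in the main fits.

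The Ube2d and Ube2e genes, broad partners of RING ligases, were 6 tested genes of which none passed against IgG, with log2 fold changes of -0.37 to 0.13. Ube2d3 was at 984 and 1210 CPM in input, 1150 and 1200 CPM in IgG, and 1460 and 1230 CPM in CPEB1 IP, and the IgG libraries lay below both CPEB1 IP libraries by less than the test could separate (0.13, SE 0.10, edgeR adjusted p = 0.353). DESeq2, the fit without a filter and the fit without the second CPEB1 IP library called it higher. Ube2e2 was at 35.9 and 36.8 CPM in input, 27.3 and 28.4 CPM in IgG, and 22.9 and 23.1 CPM in CPEB1 IP, and the 3 groups did not overlap. Its log2 fold change over input was -0.61 (SE 0.21, edgeR adjusted p = 0.0376), the only call in that direction. The call was absent with DESeq2, without the filter, with the replicate block and without either CPEB1 IP library. Ube2d-ps, a transcribed pseudogene outside the symbol rule, held 42 to 172 counts in each library, and reads of its parent genes could be split with it. Ube2b, highest in input by FPKM, was at 266 and 332 CPM in input, 230 and 256 CPM in IgG, and 305 and 282 CPM in CPEB1 IP. Like the other Rad6 counterpart Ube2a it passed no test in the main fits. Ube2b over IgG was 0.20 (SE 0.10, edgeR adjusted p = 0.147), and DESeq2 and the fit without the filter called it higher, at 0.48 and 0.60. Both of these fits also called Ube2a higher than IgG. Ube2w, which ubiquitinates the amino terminus of proteins, was at 76.7 and 111 CPM in input and 66.8 and 63.4 CPM in IgG, a difference of -0.53 (SE 0.21, edgeR adjusted p = 0.0392) that 6 of the 11 alternatives lost.

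The study's own criterion for an associated transcript combines a count test with a ratio above 2 between CPEB1 IP and IgG. Each CPEB1 IP library was set over the IgG library of the same number, taken as 1 experiment. With FPKM plus 1, this ratio was above 2 in both experiments for 8 of the 35 E1 and E2 genes, and for 14.4% of all tested genes. All 7 genes that were higher by count were among the 8, and 12.1% of all tested genes met both criteria. The eighth was Ube2l6, with ratios of 2.35 and 3.01. Ube2g2 had ratios of 3.40 and 2.79, Uba1 of 2.26 and 2.68, Ube2n of 2.47 and 2.16, and Ube2h of 2.31 and 2.44. Ube2z followed with 2.11 and 2.94, Ube2l3 with 2.35 and 2.25, and Ube2j1 with 2.07 and 2.16. These ratios exceeded the count folds of 1.23 to 1.79 of the same 7 genes, but the FPKM ratios of all genes were raised too. The median log2 ratio in experiments 1 and 2 was 0.54 and 0.61 over all 12124 tested genes. Over the 35 E1 and E2 genes it was 0.84 and 0.79. With TMM library sizes the medians over all genes were -0.01 and -0.02, and over the 35 genes 0.17 and 0.10. With TMM library sizes, or with the counts on genes as the total, none of the 7 genes kept a ratio above 2 in both experiments, and with a pseudocount of 5 only Uba1 and Ube2g2 did.

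CPEs were common in the 3′ UTRs of these genes. Of 43 members with an annotated 3′ UTR, 32 held TTTTAT or TTTTAAT in at least 1 of their 3′ UTRs (74.4%, exact Clopper-Pearson interval at 95% of 58.8% to 86.5%, which covers counting error only). Over all 20999 genes with a 3′ UTR the share was 57.8%. The members also had longer 3′ UTRs, with a median of 1304 bases for the longest of each gene against 961 bases. Median CPE matches per kilobase of that UTR were 0.808 for the members and 0.654 for all genes. Among tested genes the shares were 82.9% of 35 members and 66.9% of 10910 genes, with medians of 1487 and 1287 bases and of 1.36 and 0.939 matches per kilobase. All 7 genes higher in CPEB1 IP than in IgG held a CPE, and so did Ube2j2, which was lower. With 9 motifs that also take in weaker CPE spellings, 83.7% of members and 65.8% of genes had a match. A CPE within 100 bases before a polyadenylation hexamer was found in 30.2% of members and 29.3% of genes.

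**Figure D4:**
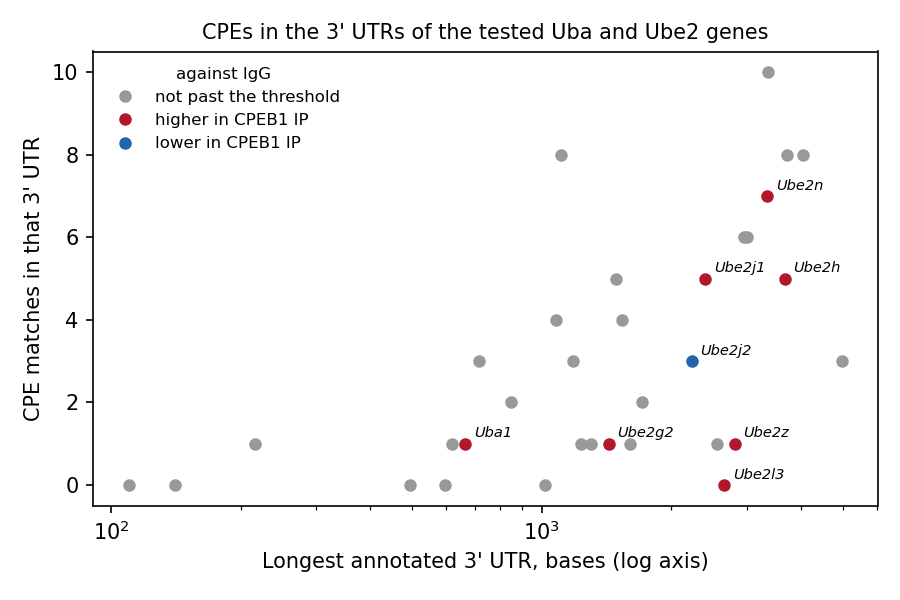
Number of CPE matches in the longest annotated 3′ UTR of 33 of the 35 tested E1 and E2 genes against the length of that 3′ UTR in bases (log axis), coloured by the result of CPEB1 IP against IgG. The 7 genes that were higher had 0 to 7 matches, and Uba6, which passed no test, had the most with 10.

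The number of CPEs did not follow the difference between CPEB1 IP and IgG among the 35 genes. Across these genes, which share the same libraries and are not independent replicates, Pearson's r between the CPE count of the longest 3′ UTR and the log2 fold change was -0.08 and Spearman's rho was -0.15. Ube2n held 7 CPEs and Ube2h and Ube2j1 held 5 each, but Ube2g2, Uba1 and Ube2z held 1. Conversely Uba6 with 10, and Uba3, Ube2k and Ube2v2 with 8 each, did not differ from IgG by the test. For the length of the longest 3′ UTR, r was 0.28 and rho 0.05, and for the mean log2 CPM r was 0.40 and rho 0.38. A match is a stretch of letters and not a measured binding site.

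The genes around the E1 and E2 enzymes were described by 7 lists of modifiers, ligases and proteases, chosen with earlier results of these data known. Of 101 tested genes of the lists, 24 were higher in CPEB1 IP than in IgG and 5 were lower, beside the 14.7% and 18.7% of all genes given above. Without the second CPEB1 IP library 11 were higher and none lower, without the first IgG library only 1 was lower, and DESeq2 called none lower. Among the modifiers, 4 of 12 were higher and 2 lower: the polyubiquitin gene Ubb had 446 and 487 CPM in IgG and 694 and 689 CPM in CPEB1 IP (log2 fold change 0.50), and Nedd8 (0.59) and Sumo3 (0.48) were higher too. Of 10 partner enzymes outside the symbol rule, 2 were higher and none lower, with Atg3, the E2 of autophagy, at 0.58 and Sae1, the partner of Uba2, at 0.44. Sae1 had 48.6 and 53.2 CPM in IgG, 68.3 and 75.3 CPM in CPEB1 IP, and 90.5 and 109 CPM in input. Ubb was higher in CPEB1 IP than in IgG but lower than in input, at -0.72, and so were Ddb1 at -0.37, Nedd4 at -0.66 and Usp22 at -0.85 of the other lists.

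Of 16 tested genes of the cullin-RING core, the ligases that Ube2r2 and the E2 enzymes of NEDD8 serve, 4 were higher than IgG and none lower. These were the adaptor Ddb1 (0.59), the RING subunit Rbx1 (0.54), the exchange factor Cand1 (0.33) and the elongin Elob (0.29). Against input, 4 of the 16 were higher and 5 lower in CPEB1 IP, and 2 were higher and 5 lower in IgG. For each list of this paragraph, the shares of all genes against IgG were 14.7% higher and 18.7% lower. Of 14 genes of the anaphase-promoting complex, the ligase of Ube2c and Ube2s, 4 were higher than IgG and none lower. They were its activator Fzr1 (0.66) and the subunits Cdc16 (0.50), Anapc11 (0.47) and Anapc5 (0.37). Against input, of 16 tested genes of the complex 1 was higher and 4 lower in CPEB1 IP, and 1 was higher and 6 lower in IgG. Among 12 ligases known in muscle, Nedd4 (0.91) and Stub1 (0.56) were higher and Cblb fell by 0.90. Nedd4 had 301 and 323 CPM in IgG, 601 and 621 CPM in CPEB1 IP, and 918 and 1090 CPM in input. Among 12 RING partners of particular E2 enzymes 3 were higher: Rnf40 (0.64), which works with Ube2a and Ube2b, and the ERAD ligases March6 (0.53) and Syvn1 (0.32). Of 25 deubiquitinases and related proteases, 5 were higher, among them the proteasome subunit Psmd14 (0.80), Otub1 (0.71), an inhibitor of Ube2n, and Usp22 (0.62), and 2 were lower, among them the SUMO protease Senp7, which fell by 0.94. Against input the lists had 22 genes higher and 18 lower in CPEB1 IP of 105 tested, beside 17.0% and 15.8% of all genes. In IgG against input 16 were higher and 28 lower of 104, beside 21.4% and 19.4% of all genes.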

How the data were processed

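The authors aligned the reads to mm10 (HISAT2) and counted reads for each gene (featureCounts). They deposited raw counts and FPKM with the summed exon length of each gene. The annotation release, the strand setting and the treatment of reads with several positions are not given in the sources used here, and StringTie stands among the tools of the submitters' processing notes without a role. Raw counts of 2 groups at a time were compared in R 4.3.3 with edgeR 4.0.16 (filterByExpr, TMM, glmQLFit and glmQLFTest, two-sided), with Benjamini-Hochberg adjustment over all genes tested and a threshold of 0.05. The paper names DESeq2 on raw counts for its own test and states no term for the experiment, and DESeq2 is an alternative here. Each SE was taken as the absolute log2 fold change over the root of the F statistic. Alternatives were DESeq2 1.42.0, RLE and upper quartile factors, no filter, protein-coding genes only, the replicate block, all 6 libraries in 1 fit, and each library left out, where a lone library was assumed to vary like the others. FPKM were used as deposited, plus a pseudocount of 1 for ratios.

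Genes were placed with GENCODE M21 on mm10, which matched all 46 members with the same start and end, and 3′ UTRs were built from its exons and stop codons. Values in every library are given for the Uba genes, for up to 12 Ube2 genes past the threshold against IgG and 6 more against input by size of change (mean FPKM over 1), and for the 3 highest Ube2 genes in input. Other members named with values were chosen after these were seen. A few genes are counted in the totals but not reported here by value. The members, lists and tests were chosen with earlier results of these data known. Tested on simulated counts for CPEB1 IP against IgG, where 100 genes had a true log2 difference of 1 and 100 a difference of 2, the procedure recovered 54 and 87 with 12 false calls among 11342 genes. The log2 fold changes of the members that passed against IgG were smaller than 1, and such sizes were not simulated. Far fewer genes were changed in the simulation than were called in the data, where 1779 were higher and 2265 lower of 12124. The recovery and the false calls therefore need not hold for the data. Figures and tables were made in Python 3.11.15 with pandas 2.3.3, scipy 1.17.1 and matplotlib 3.10.9.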

Additional observations from a re-analysis of the deposited data

How the results depend on the processing

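Counts of E1 and E2 genes moved with the tool, the filter, the scaling and single libraries. In CPEB1 IP against IgG, 7 genes were higher, against 15 with DESeq2 and 18 without the filter on low counts, and 5 to 9 with a library left out. Lower was 1 gene, against 0 with DESeq2, 4 with upper quartile factors, 0 without the filter, and 0 to 2 with a library left out, 0 without the second CPEB1 IP library and 2 without the second IgG library (11 members had an unadjusted p under 0.05 in edgeR and 18 in DESeq2). The median log2 fold change of 0.13 became 0.41 with DESeq2, 0.54 without the filter, 0.19 with all 6 libraries in 1 fit, -0.0049 with upper quartile factors (chosen after seeing the data), and 0.18 to 0.27 with a library left out. In CPEB1 IP against input, 5 genes (without the second CPEB1 IP library) to 14 genes (without the second input library) were higher in place of 9. Lower was 1, against 0 with DESeq2, 0 without the filter, and 0 to 5 with a library left out (most without the first input library). In IgG against input, the 4 higher genes became 2 with DESeq2, 1 without the filter and 2 to 5 with a library left out, the 5 lower genes became 3 with DESeq2 and 2 to 7 with a library left out, and the median of 0.02 became -0.26 without the filter. The all-gene share of higher calls in that comparison was 52.4%, against 39.6% with DESeq2 and 65.1% with upper quartile factors. The 7 genes that met the FPKM and count criteria became 2 when the pseudocount was 5, 0 when TMM set the library sizes and 0 when the total was the counts on genes. The CPE share of 74.4% fell to 30.2% within 100 bases before a hexamer. In the pathway lists, 11 (without the second CPEB1 IP library) to 22 genes were higher in place of 24 with a library left out, and the 5 lower genes became 0 with DESeq2 and 0 to 4 with a library left out. The number of calls over all genes also moved between the count fits. The cause of these shifts was not tested.

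With a replicate block, the fit gave 8 higher and 1 lower member in CPEB1 IP against IgG, 8 and 0 in CPEB1 IP against input, and 4 and 6 in IgG against input. The main count tests have no term for the number, since the paper states none for its own test. Same-numbered libraries did not deviate together (correlations of -0.0107, -0.0206 and 0.0324 across genes). The FPKM ratio does set same-numbered libraries against each other, as one experiment of the study, and 7 genes also met its criteria with crossed pairs.

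The values that changed sign had passed no threshold in the main comparison. In CPEB1 IP against IgG these were Uba6 (-0.36, against 0.05 without the filter, and -0.71 to 0.27 without the first or second IgG library, of which the first passed), Ube2r2 (-0.10 with upper quartile factors, -0.01 over protein-coding genes and -0.17 without the first IgG library), Ube2f (-0.09 with upper quartile factors, and -0.06 to 0.28 without the first or second IgG library) and Ube2q2 (-0.0049, and -0.06 to 0.49, likewise). In CPEB1 IP against input, without the first or second input library Uba2 was at -0.0021 or 0.30 and Ube2b at -0.15 or 0.17. Uba2 was at -0.04 without the second CPEB1 IP library, Ube2h at 0.01 or -0.24 without the first or second, and Ube2b at -0.02 without the first. Ube2b was also at -0.01 with DESeq2, -0.05 with upper quartile factors, -0.01 without the filter and -0.03 with all 6 libraries. In IgG against input, Uba6 was at -0.06 with DESeq2, -0.19 without the filter and 0.47 or -0.52 without the first or second IgG library, Uba7 at -0.07 without the filter, -0.07 without the second input library and -0.56 or 0.68 without the first or second IgG library, and Ube2z at 0.14 with upper quartile factors, 0.04 over protein-coding genes and -0.34 or 0.19 without the first or second IgG library. Ube2j1 was at 0.09 with upper quartile factors.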
